A study of Mus musculus with 12 samples.

Results

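The aldo-keto reductases are a superfamily of enzymes that reduce aldehydes and ketones with NADPH, and 10 of their genes were followed here: Akr1a1, Akr1b3, Akr1b7, Akr1b8, Akr1c6, Akr1c14, Akr1c18, Akr1c19, Akr1c20 and Akr7a5. They were chosen by name among the 36528 gene IDs of the count table, with the numeric IDs mapped to symbols. Earlier results of these data were known when the choice was made. All 10 were among the 16032 genes with enough counts to test. A further 7 Akr genes of the table, which the choice left out, are given beside them. RNA was sequenced from whole liver of 12 mice. Of these, 6 received carbon tetrachloride (CCl4) and 6 received oil, in each case over 6 weeks with 3 injections per week into the peritoneum. The labels name no strain, sex, age, genotype or further agent for either group. CCl4 is a solvent that the hepatocyte turns into a radical, and repeated injections are widely used to produce a chronically injured, fibrotic liver in mice.

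Members of the family fall into groups by substrate. The broad aldehyde reductases act on small aldehydes and on sugars, the Akr1b group holds aldose reductase and its close copies, and the Akr1c group oxidises and reduces hydroxyl and keto groups of steroids, prostaglandins and bile acid precursors. In the liver these enzymes are known for clearing lipid aldehydes, for steroid inactivation and, through a relative outside the 10, for bile acid synthesis.

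Both clusters in which these genes lie were read from the annotation. On chromosome 6 the Akr1b cluster (34303930 to 34423137, GRCm38) ran over 119.2 kb in the order Akr1b3, Akr1b8, Akr1b10 and Akr1b7, with no other tested gene between them. On chromosome 13 the Akr1c cluster (4048991 to 4609164) ran over 560.2 kb and held 9 Akr genes, in the order Akr1c14, Akr1c18, Akr1c13, Akr1c19, Akr1c12, Akr1c6, Akr1c20, Akr1c21 and Akr1e1. Akr1a1 (116636510 to 116651674) and Akr7a5 (139310720 to 139318786) lie apart from both, on chromosome 4.

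The sequence before the start site is shown for 2 pairs of neighbours, because all genes of the Akr1b cluster moved one way while Akr1c14 and Akr1c18 moved in opposite ways. RefSeq (GRCm38.p6) gave such a window for 8 of the 10 members; Akr1b3 and Akr1c20 were not matched. Each run below is the 250 bases before the start, 5′ to 3′ on the gene's own strand, and the capitals mark the longest run of letters that both windows of a pair share. The run shared by Akr1b7 and Akr1b10 had 13 bases and began 79 and 28 bases before the start. That of Akr1c18 and Akr1c14 had 8 bases and began 245 and 141 bases before it. The pairs were picked by their changes in these data, and no other pair was compared. How long a run unrelated windows share was not measured. Whether shared letters go with a shared direction was therefore not tested.
Akr1b7, chr6:34412112-34412361, plus strand: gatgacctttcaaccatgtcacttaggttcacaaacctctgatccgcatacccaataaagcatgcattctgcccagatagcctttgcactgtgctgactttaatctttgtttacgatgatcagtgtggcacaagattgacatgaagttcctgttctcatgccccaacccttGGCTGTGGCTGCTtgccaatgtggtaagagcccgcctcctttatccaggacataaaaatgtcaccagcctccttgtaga
Akr1b10, chr6:34383997-34384246, plus strand: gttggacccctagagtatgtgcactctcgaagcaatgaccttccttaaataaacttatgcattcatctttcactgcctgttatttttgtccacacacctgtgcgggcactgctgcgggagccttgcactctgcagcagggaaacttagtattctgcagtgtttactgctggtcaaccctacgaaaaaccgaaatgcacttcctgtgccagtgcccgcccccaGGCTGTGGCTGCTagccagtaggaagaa
Akr1c18, chr13:4150647-4150896, minus strand: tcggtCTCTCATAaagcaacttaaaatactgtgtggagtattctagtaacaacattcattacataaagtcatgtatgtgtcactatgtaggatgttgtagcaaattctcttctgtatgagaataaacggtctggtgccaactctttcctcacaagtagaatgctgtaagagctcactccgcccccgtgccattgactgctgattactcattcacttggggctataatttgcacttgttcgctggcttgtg
Akr1c14, chr13:4059341-4059590, plus strand: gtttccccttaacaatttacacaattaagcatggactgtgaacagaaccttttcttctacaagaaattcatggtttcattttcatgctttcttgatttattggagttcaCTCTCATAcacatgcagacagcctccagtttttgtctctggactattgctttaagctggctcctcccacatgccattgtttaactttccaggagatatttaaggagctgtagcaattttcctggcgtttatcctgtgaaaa

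Motifs of 4 kinds were searched on both strands of the 8 windows. The core of the antioxidant response element, TGACNNNGC, was in none of the 8 and in 10.2% of all 32851 windows of this length, and the AP-1 letters TGANTCA were in none of the 8 and in 6.75% of all. The letters TTCNNNGAA, bound by STAT5, were in the window of Akr1c19 alone (7.02% of all windows), starting 24 bases before the start and shown in capitals below. TATAAA was in the windows of Akr1b8 and Akr1c6, 159 and 164 bases before the start (12.4% of all). These are matches of letters, not sites of binding, and the start that RefSeq uses for Akr1c6, Akr1c14, Akr1c19 and Akr7a5 lies inside the gene's span.
Akr1c19, chr13:4233490-4233739, plus strand: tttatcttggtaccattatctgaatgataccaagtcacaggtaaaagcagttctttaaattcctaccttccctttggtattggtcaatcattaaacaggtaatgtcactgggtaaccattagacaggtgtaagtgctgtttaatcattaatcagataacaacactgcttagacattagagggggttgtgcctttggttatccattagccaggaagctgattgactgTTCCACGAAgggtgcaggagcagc

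Library totals ran from 43027778 to 70375852 counts, with 43027778 to 70375852 in the oil group and 53602695 to 69203292 in the CCl4 group. Hepatocyte markers were abundant in every library. The summed level of 7 hepatocyte genes, among them Alb and Apob, was 99330 to 138200 CPM (counts scaled to a common library total) in oil and 97070 to 146800 CPM in CCl4. Most of that sum was Alb, with means of 78023 and 77063 CPM. Of the 7 genes Apob and Hnf4a fell, Ahsg rose and 4 were not called. CPM were computed after TMM scaling, which allows for differences in library make-up. Of 9 pericentral hepatocyte genes 8 fell (summed level 8328 to 10060 CPM in oil and 1117 to 1871 CPM in CCl4). Of 10 periportal hepatocyte genes 5 fell and 1 rose (9442 to 13900 and 7285 to 9125 CPM). All 8 genes of activated stellate cells rose (58.4 to 131 and 482 to 775 CPM), as did 9 of 11 macrophage genes (242 to 395 and 614 to 1245 CPM) and all 5 genes of dividing cells (7.62 to 11.7 and 35.9 to 78.4 CPM). Over all tested genes 20.6% rose and 18.4% fell. Exocrine pancreas genes summed to at most 25.1 CPM in an oil liver and 274 CPM in a CCl4 liver, and skeletal muscle genes to 1.43 and 241 CPM. In whole liver fewer cells of a type and less RNA per cell cannot be told apart, and the part of these cell types in the changes below was not tested.

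Of the 10 aldo-keto reductases 4 rose after CCl4 (Akr1b3, Akr1b7, Akr1b8 and Akr1c18), 2 fell (Akr1c14 and Akr1c19) and 4 did not pass (Akr1a1, Akr7a5, Akr1c6 and Akr1c20), at an adjusted p under 0.05 in edgeR's quasi-likelihood test. Over all 16032 tested genes 39.0% passed, of which 20.6% of the genes tested rose and 18.4% fell, and the members' counts stand beside these shares without a test of the list. The median log2 fold change was 0.18 over the members and 0.01 over all genes. In all 4 risen genes every CCl4 liver lay above every oil liver, which held for 12% of all tested genes. Neither of the 2 fallen genes separated the groups in this way (8.03% of all genes lay lower in every CCl4 liver). All 6 calls were also made in each of 20 other fits, which differed in scaling, tool or filter, added a term for transcript length or left out 1 liver.

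**Figure D1:**
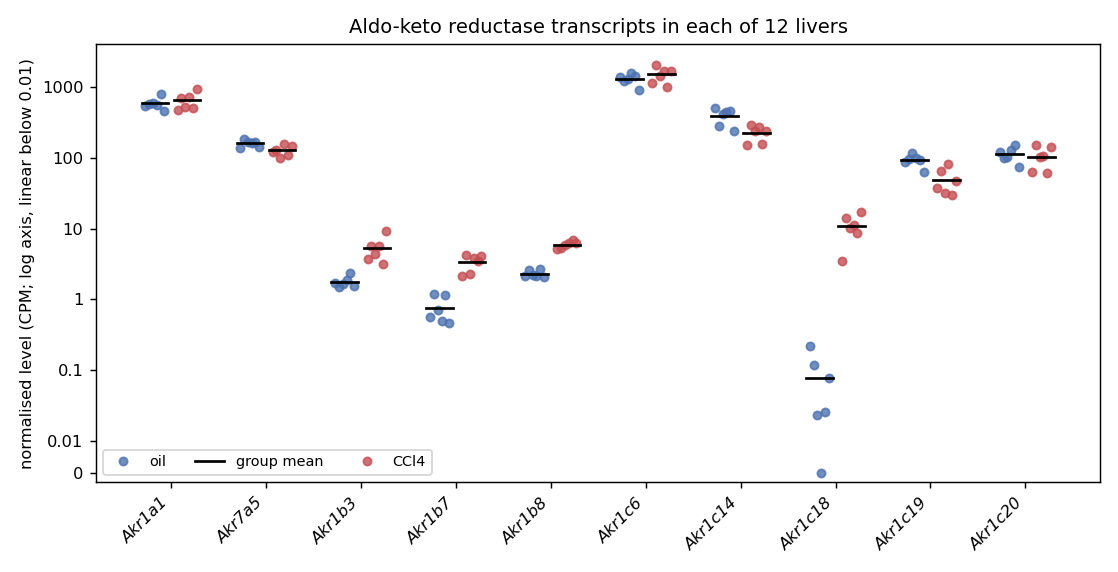
Normalised level of each of the 10 aldo-keto reductases (CPM, log axis that turns linear below 0.01) in 6 oil livers (blue) and 6 CCl4 livers (red), with 1 point per liver and a line at the group mean. Akr1b3, Akr1b7, Akr1b8 and Akr1c18 show no overlap between the groups, and Akr1c18 lies between 0 and 0.224 CPM in oil and between 3.49 and 17.2 CPM in CCl4.

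Akr1a1, the aldehyde reductase that turns glucuronate into gulonate on the way to ascorbate (gene ID 58810), was at 451 to 788 CPM in oil with a median of 562 CPM, and at 470 to 937 CPM in CCl4 with a median of 609 CPM. The groups overlapped, and 1 CCl4 liver lay above the highest oil liver. The log2 fold change was 0.14 ± 0.19 (SE, n = 6 per group; 95% interval -0.26 to 0.54; edgeR adjusted p = 0.568). A p above the threshold does not show that the levels of Akr1a1 were equal.

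Akr7a5, known for reducing the dialdehyde of aflatoxin and succinic semialdehyde (gene ID 110198), was at 136 to 183 CPM in oil (median 161 CPM) and at 100 to 156 CPM in CCl4 (median 125 CPM). In 4 of the 6 CCl4 livers it was under the lowest oil liver, and the other 2 lay within the oil range. Its log2 fold change of -0.32 ± 0.13 (95% interval -0.60 to -0.05) did not pass (edgeR adjusted p = 0.0604). It did pass with DESeq2 (adjusted p = 0.0322), with limma-voom and sample weights (adjusted p = 0.0388), and in edgeR without oil liver 1 (0.0490), CCl4 liver 4 (0.0323) or CCl4 liver 6 (0.0489). The span of Akr7a5 overlaps that of Slc66a1, whose log2 fold change was 0.02 (edgeR adjusted p = 0.886).

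Akr1b3 is aldose reductase, which makes sorbitol from glucose as the entry to the polyol pathway (gene ID 11677, chromosome 6, 34303930 to 34317489). Its level was 1.52 to 2.34 CPM in the oil livers (median 1.68 CPM) and 3.13 to 9.34 CPM in the CCl4 livers (median 5.04 CPM). All 6 CCl4 livers were above the oil range, with CCl4 liver 6 the highest. Akr1b3 was 3.01-fold higher after CCl4 (log2 fold change 1.59 ± 0.25, edgeR adjusted p = 0.000174). Without CCl4 liver 6 the log2 fold change was 1.36.

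Akr1b7, best known from the adrenal gland and the vas deferens, where it reduces the aldehyde left by side-chain cleavage of cholesterol (gene ID 11997, chromosome 6, 34412362 to 34423137), was at 0.463 to 1.20 CPM in oil (median 0.637 CPM). In CCl4 it was at 2.13 to 4.30 CPM (median 3.67 CPM). Again no CCl4 liver fell into the oil range. The gene was 4.39-fold higher (log2 fold change 2.13 ± 0.29, edgeR adjusted p = 5.81e-05), from 214 counts in all oil livers together and 1348 in the CCl4 livers. Of 5 genes of the adrenal cortex, where Akr1b7 is abundant, only 2 had enough counts to test, and neither passed. Cyp11b1 had no count in any library. The list's summed level was 2.65 to 6.31 CPM in oil and 3.06 to 8.44 CPM in CCl4. Whether adrenal tissue has a part in the level of Akr1b7 was not tested.

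Akr1b8, a reductase of retinal and of lipid aldehydes first found as a gene induced by fibroblast growth factor (gene ID 14187, chromosome 6, 34354146 to 34368461), varied least among the risen genes. It was at 2.08 to 2.71 CPM in oil (median 2.20 CPM) and at 5.07 to 6.86 CPM in CCl4 (median 6.02 CPM). Every CCl4 liver exceeded every oil liver, and the spread within either group was small beside the gap. The rise was 2.56-fold (log2 fold change 1.36 ± 0.13, edgeR adjusted p = 3.94e-06).

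Akr1b10 lies between Akr1b8 and Akr1b7 and is not among the 10. Its level was 1.15 to 1.45 CPM in oil and 1.97 to 2.71 CPM in CCl4, 1.87-fold higher without overlap (log2 fold change 0.90 ± 0.15, edgeR adjusted p = 0.000298). All 4 genes of the chromosome 6 cluster thus rose, and the summed level of the 3 members went from 4.07 to 6.22 CPM in the oil livers to 10.9 to 19.7 CPM in the CCl4 livers.

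**Figure D2:**
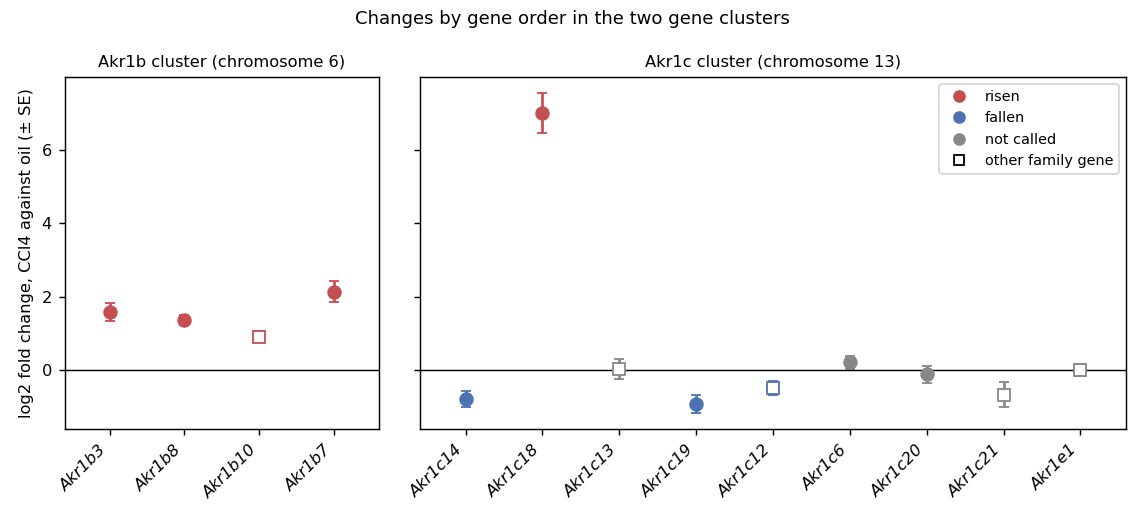
Log2 fold change (CCl4 against oil, ± SE, 6 livers per group) of the genes of the Akr1b cluster on chromosome 6 and the Akr1c cluster on chromosome 13, in their order along the chromosome; filled circles are members and open squares other Akr genes, coloured by call. All 4 genes of the Akr1b cluster lie above 0, whereas the Akr1c cluster holds Akr1c18 at 7.01 beside fallen and uncalled genes.

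Akr1c6, the estradiol dehydrogenase of mouse liver that interconverts estradiol and estrone (gene ID 83702, chromosome 13, 4434311 to 4457530), had the highest level per kilobase of the 10. Its level was 906 to 1543 CPM in oil (median 1314 CPM) and 987 to 2017 CPM in CCl4 (median 1557 CPM). The groups overlapped, and 3 of the 6 CCl4 livers (2, 4 and 6) lay above the highest oil liver. The log2 fold change of 0.21 ± 0.18 (95% interval -0.18 to 0.60) did not pass (edgeR adjusted p = 0.376).

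Akr1c20, the close copy of Akr1c6 next to it (gene ID 116852, chromosome 13, 4486856 to 4523354), was at 74.3 to 149 CPM in oil (median 110 CPM) and at 59.9 to 149 CPM in CCl4 (median 104 CPM). Its values overlapped almost fully, with a log2 fold change of -0.12 ± 0.24 (95% interval -0.62 to 0.39; edgeR adjusted p = 0.712).

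Akr1c14 is the 3-alpha-hydroxysteroid dehydrogenase, which inactivates dihydrotestosterone and acts on bile acid precursors (gene ID 105387, chromosome 13, 4048991 to 4090560). It was at 236 to 506 CPM in oil (median 424 CPM) and at 150 to 286 CPM in CCl4 (median 237 CPM). Oil livers 2 and 6, at 281 and 236 CPM, lay within the CCl4 range, and the other 4 lay above it. The level was 1.74-fold lower after CCl4 (log2 fold change -0.80 ± 0.22, edgeR adjusted p = 0.0104).

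Akr1c19, a less studied dehydrogenase of the group (gene ID 432720, chromosome 13, 4233503 to 4248361), had 62.4 to 117 CPM in oil (median 94.6 CPM) and 30.0 to 80.7 CPM in CCl4 (median 41.4 CPM). CCl4 livers 2 and 4, at 64.7 and 80.7 CPM, lay above oil liver 6, and the other 4 CCl4 livers lay under all oil livers. The fall was 1.92-fold (log2 fold change -0.94 ± 0.24, edgeR adjusted p = 0.00771).

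Akr1c18 is the 20-alpha-hydroxysteroid dehydrogenase, which inactivates progesterone and is best known from the ovary (gene ID 105349, chromosome 13, 4132615 to 4150646). Its counts in oil livers 1 to 6 were 11, 6, 1, 0, 1 and 5, or 0 to 0.224 CPM with a median of 0.0516 CPM. In CCl4 livers 1 to 6 they were 221, 953, 857, 722, 661 and 942, or 3.49 to 17.2 CPM with a median of 10.8 CPM. The transcript was near the limit of detection in every oil liver and plainly present in every CCl4 liver, CCl4 liver 1 having the lowest value. The fitted change was 128-fold (log2 fold change 7.01 ± 0.54, edgeR adjusted p = 6.81e-07), and since it rests on 24 oil counts against 4356, its size depends on how low counts are treated. Counting Akr1c18 itself, 7 of the 16032 tested genes (0.0437%) had a log2 fold change at least as high. With oil counts this low the gene entered the test only through its CCl4 counts. Its rank and its lack of overlap therefore follow in part from the filter and are not separate support for the rise.

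By the profile over the 12 livers, measured as the root mean square difference of log2 CPM after each gene's oil mean was subtracted, the 3 genes nearest to Akr1c18, among tested genes outside the family whose mean log2 CPM was 1 or more, were Ly6d (0.70), Mmp12 (1.10) and Cyp2a4 (1.30). Ly6d, a surface protein of the Ly6 family, went from 0.556 to 4.71 CPM in oil to 75.3 to 287 CPM in CCl4. Mmp12, the macrophage elastase, went from 0.938 to 4.46 CPM to 47.0 to 121 CPM, and Cyp2a4, a steroid hydroxylase, from 0.154 to 0.754 CPM to 6.75 to 59.5 CPM. Nearest to Akr1c19 in the same set were Dcxr, a reductase of dicarbonyls and xylulose (0.22), Pecr, a peroxisomal enoyl-CoA reductase (0.23), and Gsta3, a glutathione transferase (0.25). These are likenesses of profile across the same libraries, which share the group difference, and no test was made of them.

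Of the other 7 family genes of the table, Akr1b10 rose as given above, 2 fell, 3 did not pass and 1 had no count. Akr1d1, the 5-beta-reductase of bile acid synthesis, which lies on chromosome 6 apart from the cluster (37529978 to 37574921), was at 175 to 279 CPM in oil and 45.9 to 100 CPM in CCl4. It was 3.04-fold lower with no overlap (log2 fold change -1.60 ± 0.21, edgeR adjusted p = 4.53e-05). Akr1c12 was 1.40-fold lower (log2 fold change -0.49 ± 0.18, edgeR adjusted p = 0.0466), a call lost in 11 of 20 alternatives, with an adjusted p of up to 0.113. Akr1c13 (0.02, edgeR adjusted p = 0.958), Akr1c21 (-0.68, 0.130) and Akr1e1 (0.00, 0.990) did not pass, and Akr1cl had no count in any library.

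The make-up of the family was compared per kilobase of the longest annotated transcript, since CPM of genes of different length cannot be set side by side. Akr1c6 made up 60.1 ± 2.26% (SD, n = 6) of the summed level of the 10 in oil and 65.4 ± 2.83% in CCl4, followed by Akr1a1 with 17.1 ± 2.08% and 17.8 ± 2.49%. Akr7a5 held 8.22 ± 1.46% and 6.26 ± 1.23%, and Akr1c20 held 5.42 ± 0.488% and 4.64 ± 0.666%. Each of these 4 shares overlapped between the groups. The share of Akr1c14 was 7.88 ± 1.37% in oil and 4.32 ± 0.424% in CCl4, and did not overlap (lowest oil liver 6.12%, highest CCl4 liver 4.93%), although its level did. Akr1c19 likewise took 0.886 to 1.32% in oil and 0.355 to 0.748% in CCl4. The 4 risen genes were minor in both groups: in CCl4 Akr1c18 reached 0.543 ± 0.168%, from 0.0045 ± 0.00451% in oil, Akr1b8 0.286 ± 0.0895%, Akr1b7 0.164 ± 0.0405% and Akr1b3 0.0642 ± 0.0154%. The order of levels per kilobase in oil was Akr1c6, Akr1a1, Akr7a5, Akr1c14, Akr1c20, Akr1c19, Akr1b8, Akr1b7, Akr1b3 and Akr1c18. In that order Akr1c14 (122 ± 33.4 CPM per kb) did not differ beyond the SDs from Akr7a5 (123 ± 13.4 CPM per kb) or Akr1c20 (83.6 ± 19.5 CPM per kb), nor Akr1b7 (0.598 ± 0.261 CPM per kb) from Akr1b3 (0.352 ± 0.0615 CPM per kb). In CCl4 Akr1c18 (9.05 ± 3.92 CPM per kb) stood beside Akr1c19 (8.28 ± 3.50 CPM per kb), again within their SDs. That standing rests on a length of 5832 bases for Akr1c19 and 1200 for Akr1c18, although the coding part of each has 969 bases. The summed level was 1529 ± 243 CPM per kb in oil and 1623 ± 402 CPM per kb in CCl4, and the 10 genes took 0.173 to 0.276% of all counts in the oil livers and 0.211 to 0.363% in the CCl4 livers. Shares depend on the length used: by the longest protein-coding transcript Akr1a1 took 24.5% in oil and 25.2% in CCl4, and Akr1b3, at 1.28 ± 0.223 CPM per kb in oil, stood above Akr1b7.

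**Figure D3:**
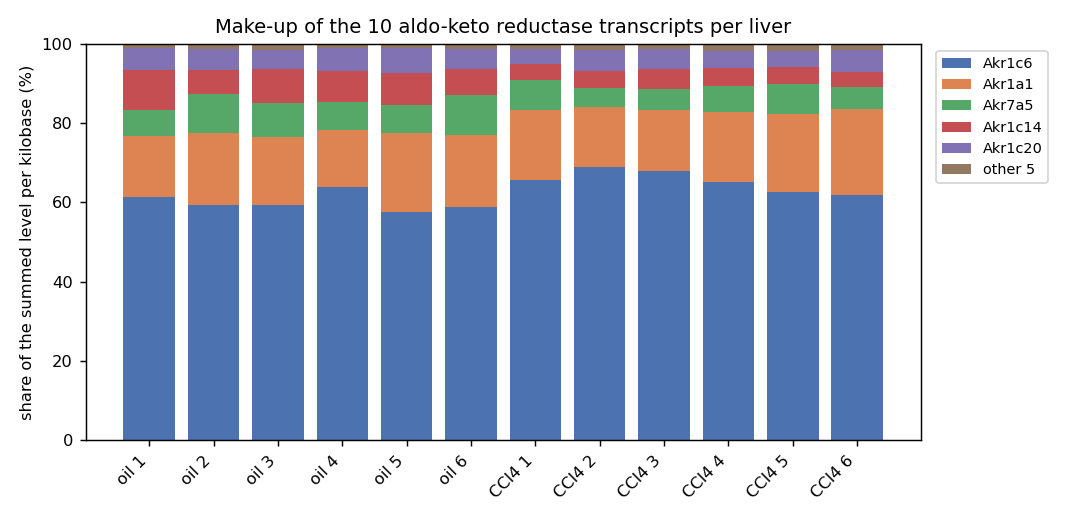
Share of each aldo-keto reductase in the summed level per kilobase of the 10 (%), with 1 stacked bar per liver and the 5 least abundant genes pooled. Akr1c6 makes up 57.6 to 64.0% in the oil livers and 62.0 to 69.1% in the CCl4 livers, and the band of Akr1c14 is narrower in every CCl4 liver than in any oil liver.

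Sequence shared between copies limits some of these values, because the treatment of reads with several matches is not stated in the labels or files. Windows of 50 bases were compared along the longest protein-coding transcript of each member. For Akr1b3, whose transcript of this kind has 1387 bases, 86.2% of them also occur in another gene's transcript, mostly in Gm38056 (82.4%), Gm6644 (56.2%), Gm6736 (48.9%) and Gm12138 (40.9%). Of these Gm6644 is in the table, with 0 to 10 counts per library. The share was 15.8% for Akr1b7, 5.90% for Akr1c14, 4.18% for Akr1c19, 3.21% for Akr1b8, about 2% for Akr1c6 and Akr1c20 with each other (2.08% and 2.17%), 0.608% for Akr1c18 and 0 for Akr1a1 and Akr7a5. Akr1c19 shares its 4.18% with Marcksl1-ps4, a gene of the same cluster that was itself called fallen (log2 fold change -1.10, edgeR adjusted p = 0.00831). Over the aligned coding sequence Akr1c6 and Akr1c20 were 92.3% identical, Akr1b7 and Akr1b10 89.2%, Akr1b7 and Akr1b8 85.7%, and Akr1c14 and Akr1c18, which moved in opposite ways, 76.0%.

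The livers also differed in how levels ran with transcript length, and several members moved with that. The slope of log2 level, relative to the gene's mean, on log2 transcript length was -0.15 to 0.25 in the oil livers and -0.38 to 0.16 in the CCl4 livers. CCl4 livers 2, 4 and 6, with slopes of -0.24, -0.20 and -0.38, had 700, 722 and 937 CPM of Akr1a1, against 470, 518 and 495 CPM in CCl4 livers 1, 3 and 5. Oil liver 5, which had the lowest slope of its group (-0.15), had the highest Akr1a1 of the oil livers at 788 CPM. With the slope as a term in edgeR, 8 of the 10 members passed, against 43.5% of all genes. The 4 rises stayed (log2 fold change 1.09 for Akr1b3, 1.82 for Akr1b7, 1.31 for Akr1b8 and 6.46 for Akr1c18), the falls of Akr1c14 (-1.09) and Akr1c19 (-1.30) were larger, and Akr7a5 (-0.47, adjusted p = 0.00264) and Akr1c20 (-0.60, adjusted p = 0.00233) were called fallen. Akr1a1 (-0.22) and Akr1c6 (-0.10) did not pass, with signs opposite to those without the term. The slope was computed from the levels in these same libraries, and its range reached lower in the CCl4 group. The term can therefore take up part of the difference between the groups. What sets the slope was not tested.

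**Figure D4:**
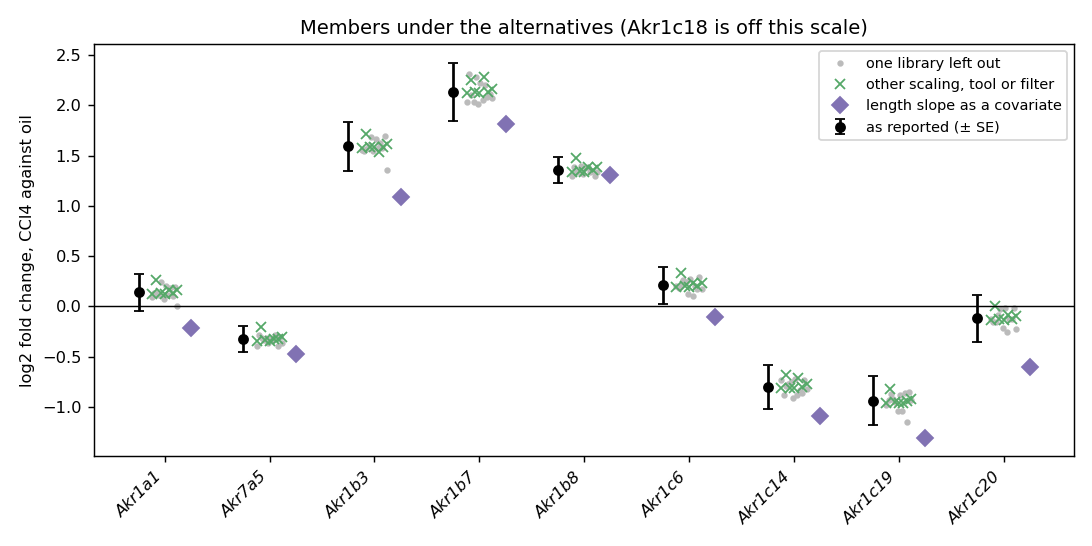
Log2 fold change (CCl4 against oil) of 9 members as reported (black, ± SE), with 1 liver left out (grey), under another scaling, tool or filter (green crosses) and with a term for the length slope (purple diamonds); Akr1c18, at 7.01, is off the scale. The diamonds lie below the black points for all 9 genes, by the least for Akr1b8 (1.31 against 1.36).

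Genes of the pathways around the members were taken from lists chosen with earlier results of these data known, and each count is to be read against the 39.0% of all genes that passed. Among the 16 other carbonyl and quinone reductases 4 rose and 4 fell (median log2 fold change -0.17). Cbr3, a carbonyl reductase of quinones, rose 5.08-fold from 0.962 ± 0.397 to 4.88 ± 1.51 CPM (SD, n = 6; edgeR adjusted p = 3.21e-05). Ptgr1, which reduces lipid enals, rose 2.95-fold (adjusted p = 3.40e-05), and Dhrs3, a retinal reductase, fell 2.02-fold. Without oil liver 2, oil liver 4 or CCl4 liver 2, 5 of the 16 passed in place of 8.

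Akr1b3 feeds the polyol pathway. Of 5 genes of fructose use downstream of it, Sord, the sorbitol dehydrogenase of the next step, fell 1.42-fold from 872 ± 102 to 615 ± 117 CPM (edgeR adjusted p = 0.0133), and the other 4 did not pass. The count was 2 without CCl4 liver 1, 4 or 5. Around the step of Akr1a1, 2 of 8 genes of glucuronate and ascorbate metabolism rose and 3 fell. Ugdh, which makes UDP-glucuronate, fell 1.51-fold, Dcxr fell 1.86-fold, and Miox, which opens inositol to glucuronate, rose 7.34-fold from 0.118 ± 0.0649 to 0.879 ± 0.384 CPM. Without oil liver 3 or CCl4 liver 2 the count was 3 in place of 5. Gulo, the last enzyme of ascorbate synthesis, was at 378 ± 37.9 and 366 ± 36.1 CPM.

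Steroid enzymes outside the family moved in both directions, with 5 of 16 risen and 9 fallen (median -0.63). Cyp7b1, an oxysterol hydroxylase, fell 14.9-fold, Hsd3b5, a male-type 3-ketosteroid reductase, fell 53.9-fold, and Srd5a1, which makes the dihydrotestosterone that Akr1c14 inactivates, fell 2.65-fold from 128 ± 22.1 to 48.4 ± 8.74 CPM (edgeR adjusted p = 1.07e-05). The other Srd5a genes of the list went the other way. Srd5a2 rose 2.68-fold from 0.954 ± 0.313 to 2.57 ± 0.397 CPM, and Srd5a3 rose 1.61-fold from 13.7 ± 1.80 to 21.9 ± 2.99 CPM. Cyp17a1, a steroid hydroxylase and lyase, rose 5.03-fold. Among male-biased liver genes 10 of 11 fell (median -3.35), among them Susd4, the gene of smallest p on the list, with a 79.2-fold lower level, and among 8 tested female-biased genes 3 rose (median 1.08), Cyp2a4, Cyp17a1 and Abcd2.

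Of 16 other genes that clear reactive aldehydes 8 fell and 3 rose (median -0.38). Aldh3a2, the fatty aldehyde dehydrogenase, fell 5.19-fold from 367 ± 55.8 to 70.7 ± 15.1 CPM (edgeR adjusted p = 2.37e-07), while Gsta1, a glutathione transferase that acts on hydroxyalkenals, rose 12.7-fold. Targets of NRF2, the transcription factor of the antioxidant response, which is known to act on several Akr1b and Akr1c genes, rose in 9 of 17 and fell in 3 (median 0.53). Srxn1, sulfiredoxin, rose 2.72-fold and Gstm3, a glutathione transferase, 6.76-fold, whereas Me1, malic enzyme, fell 2.25-fold. Among 11 enzymes that supply NADPH, the cofactor of the family, 2 rose and 4 fell (median -0.08), with Pgd of the pentose phosphate pathway 1.73-fold higher and Mthfd1 of folate metabolism 1.84-fold lower. Of 12 regulators 7 fell and none rose (median -0.63). Nr1i2, the xenobiotic receptor PXR, fell 1.97-fold, Stat5b, the mediator of growth hormone, fell 2.12-fold, and Hnf4a, the hepatocyte factor, fell 2.08-fold, while Nfe2l2, which encodes NRF2, was at 84.2 ± 12.4 and 102 ± 11.1 CPM (adjusted p = 0.0778).

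**Figure D5:**
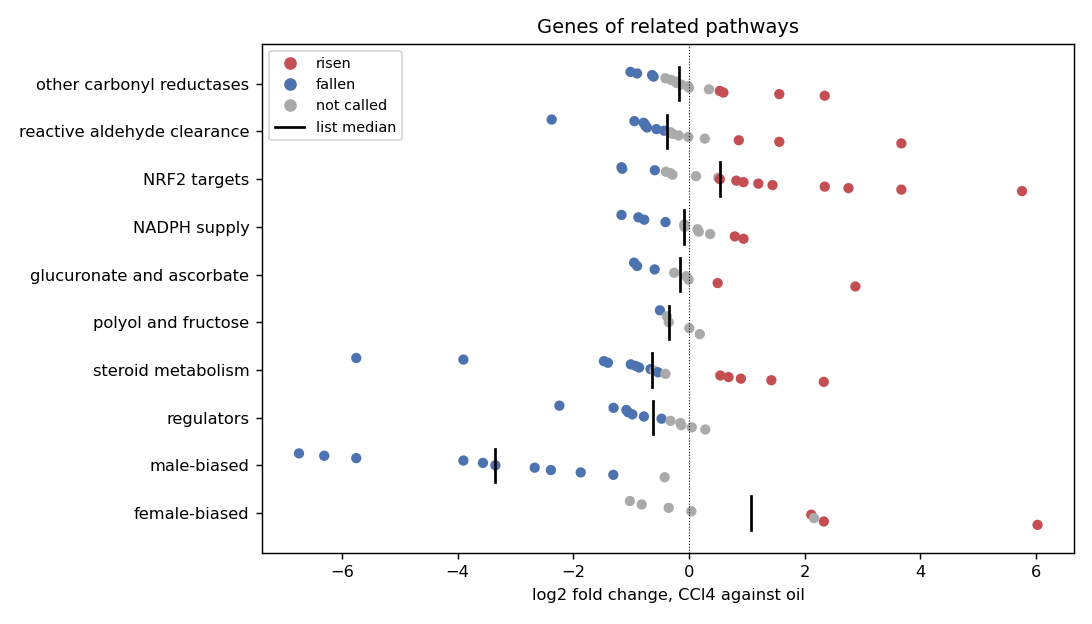
Log2 fold change (CCl4 against oil) of the tested genes in each pathway list, with 1 point per gene, coloured by call, and a line at the list's median. The NRF2 targets and the female-biased genes have medians above 0 (0.53 and 1.08), and the male-biased genes have the lowest median, at -3.35.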

How the data were processed

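The authors deposited raw, unnormalised read counts by gene, both per sample and as a joint table, and the 12 columns of the latter equalled the sample files. Per the labels' protocols, total RNA libraries were made with a stranded kit. Per the submitters' processing notes the build was GRCm38. The aligner, counter, annotation and strand setting were not given in the sources used here. IDs were named from RefSeq (31049) and GENCODE (78); 5401 had no name.

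Groups came from the labels. Members and gene lists were chosen with earlier results of these data known. Genes passing filterByExpr were TMM-scaled and entered edgeR 4.0.16 under R 4.3.3 (robust quasi-likelihood F test, Benjamini-Hochberg adjustment over 16032 genes, threshold 0.05). The standard error was the log2 fold change divided by the square root of F, and log2 CPM used a prior count of 2. Other fits used DESeq2 1.42.0 and limma 3.58.1. The tests were tried on simulated counts first. Of 99 tested genes given a 2-fold change 65 were called, of 99 given a 4-fold change 97, and of 15694 unchanged genes 6. A gene that did not pass can thus still have changed. Few genes were changed in the simulation, whereas 39.0% passed in the data, so these rates need not carry over. No pair of replicates was as alike as sampling noise allows (lowest chi-square per gene 38.5). The labels do not say how samples of a group relate beyond being separate. The p-values therefore set the group difference against the spread between these samples.

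Named outside the members were all other Akr genes, up to 3 called genes of smallest p per pathway list and the called gene of smallest p against its majority, and the 3 nearest profiles (mean log2 CPM of 1 or more) to the largest rise and fall. Nfe2l2, Gulo, Srd5a2 and Srd5a3 were named outside this rule, after their values were seen.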

Additional observations from a re-analysis of the deposited data

How the results depend on the processing

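The 6 calls among the members kept their direction and passed in all 20 alternatives: DESeq2 size factors, upper-quartile scaling, TMM without mitochondrially encoded and the 20 largest genes, DESeq2, limma-voom with sample weights, no filter, at least 50 counts in 6 libraries, the length slope, and leaving out each of 12 livers. With 1 liver left out the log2 fold change ran from 1.36 to 1.69 for Akr1b3, 2.01 to 2.31 for Akr1b7, 1.29 to 1.40 for Akr1b8, 6.77 to 7.58 for Akr1c18, -0.91 to -0.72 for Akr1c14 and -1.15 to -0.85 for Akr1c19. The number of members fallen was 4 in place of 2 with the length slope. Akr1c13 (-0.61) and Akr1e1 (-0.31) changed sign and passed under that term (adjusted p = 0.000248 and 0.0375); the cause was not tested. With upper-quartile scaling 4164 genes rose and 2022 fell, against 3305 and 2951 with TMM, the median of all genes moved from 0.01 to 0.13, and Akr1c20 stood at 0.00. Of the genes of fructose use 3 passed with DESeq2 and 2 with limma-voom or the length slope, against 1, and of the female-biased genes 5 with limma-voom, against 3. The length slope rests on the 13882 genes (86.6%) with a known transcript. Totals of 43027778 to 70375852 counts leave Akr1c18 with 0 to 11 counts per oil liver, so the size of its fold change is uncertain. No paired analysis was possible because the labels give no replicate numbers that groups share.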
